A study of Mus musculus with 23 samples.

Results

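Hearts of mouse embryos with targeted G-protein receptor kinase genes were compared as 1 pooled set with wild-type hearts. The pooled set was every library labelled GRK-haploinsufficient or GRK-triple knockout, 15 of the 23 libraries in the study, and the other 8 were wild type. RNA came from whole hearts at embryonic day 13.5, was depleted of ribosomal RNA, and was sequenced from a single end without strand. The 8 haploinsufficient hearts carried a floxed and a wild-type Grk2 allele, and the 7 triple-knockout hearts carried floxed Grk2 on both alleles. Both kinds of heart carried floxed Grk5 on both alleles, knocked-out Grk6 on both alleles and Nkx2.5Cre, a driver named for a gene of the cardiac lineage that expresses the Cre recombinase, whose construction is not given in the sources used here. The wild-type hearts had unmodified Grk2, Grk5 and Grk6 and no Cre. All 3 genotypes carry the strain label C57BL/6, and no group had Cre without the targeted alleles or the targeted alleles without Cre. Effects of Cre, of its insertion, of the targeted alleles and of chromosome segments that came with them can therefore not be told apart. A floxed allele is removed only in cells that have expressed Cre, whereas the Grk6 knockout is present in every cell.

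G-protein receptor kinases phosphorylate G-protein coupled receptors once these are activated. Arrestins then bind, which ends the coupling to the G protein and brings the receptor into the cell. Grk2, Grk5 and Grk6 are the members of this family that are broadly expressed in heart. At this stage the cushions of the atrioventricular canal are being remodelled into valves and septum, and the title of the series names defects of this canal.

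The comparison asked what the alleles that both GRK groups share change, with the set of library IDs (1 to 12, or 19 to 30) as a term. A call in it does not require that each group alone differs from wild type. Total counts per library ran from 1757257 to 13864731 (median 6657734) in the GRK-deficient hearts and from 3838166 to 14050559 (median 6657773.5) in wild type. Whether every library is its own embryo is not said in the labels, and a p-value here reflects only the spread among these libraries, part of which may be technical. The 8 summed cardiac muscle markers (Tnnt2, Myh6, Myh7, Myl7, Actc1, Ttn, Ryr2 and Nppa) gave 52280 to 74118 CPM in wild type and 33508 to 86381 CPM in the GRK-deficient libraries, where CPM is counts scaled to a common library total with TMM. Markers of tissues beside the heart (lung, foregut, liver and thymus) moved with the groups. The 25 markers summed to between 62.3 and 177 CPM (median 78.6) in wild type and between 78.3 and 591 CPM (median 139.7) in the GRK-deficient libraries, and none of the 25 was at 0 in every library. Of the 20 that could be tested, 18 had a positive log2 fold change (median 1.45), 14 had an unadjusted p under 0.05 and 0 passed the edgeR test, while DESeq2 called 5 and limma 1. A score made from them exceeded 1.5 on the log2 scale over the wild-type mean in 6 of the 15 GRK-deficient libraries (haploinsufficient replicates 1, 7 and 8, triple-knockout replicates 1, 3 and 7) and in wild-type replicate 4. Fits without these 7 libraries, and with the score as a term, are named below as the 2 tissue settings, and the calls that were lost in them are stated beside the gene.

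The targeted genes were read before any other, as a check of the labels. Cre stood at 8.23 to 24.9 CPM (median 19.3) in the 15 GRK-deficient libraries and at 0 to 0.859 CPM (median 0.202) in the 8 wild-type libraries. Every GRK-deficient library was above every wild-type library. Whole-gene Grk6 (mm10, chromosome 13, 55445334 to 55460927) was at 26.2 to 35.6 CPM (median 30.5) in wild type and 9.65 to 23.3 CPM (median 14.9) in the GRK-deficient hearts, with no overlap between the groups (log2 fold change -0.99 ± 0.13 SE, edgeR adjusted p = 7.18e-06). Grk5 (mm10, chromosome 19, 60889749 to 61092555) was at 20.3 to 27.4 CPM (median 24) and 8.26 to 19.7 CPM (median 13.5), again without overlap (-0.80 ± 0.12 SE, edgeR adjusted p = 5.27e-05). Grk2 (mm10, chromosome 19, 4286001 to 4305955), which the table names Adrbk1, was at 48.9 to 60.5 CPM (median 54.4) and 21.8 to 57.5 CPM (median 38.2), and the groups overlapped. Its log2 fold change of -0.48 ± 0.13 SE passed the test narrowly (edgeR adjusted p = 0.0394), and the call was lost in 16 of the 23 fits that left out 1 library. Without the 7 libraries of a high tissue score the Adrbk1 value was -0.67 (edgeR adjusted p = 0.00272). In a heart that mixes cells with and without Cre activity, fewer cells of a type and less RNA per cell cannot be told apart.

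The reads on single exons gave more detail than the whole genes. On Grk6 exons 3 to 9 the 8 wild-type libraries had 852 counts in total, 10.9 to 17.7 CPM each (median 14.9), and 16 counts in the 15 GRK-deficient libraries, 0 to 0.744 CPM each (median 0.0803), of which 7 libraries had no count. The pooled ratio was 0.0109 of wild type (95% exact interval 0.00618 to 0.0177, counting error only) and the groups did not overlap (two-sided exact permutation of the 23 libraries, p = 2.04e-06, the smallest that 15 against 8 can give). Grk6 exons 11 to 17, a group chosen after its values were seen, stood at 12.3 to 17.9 CPM in wild type (median 14.8) and 8.82 to 20.7 CPM (median 12.9) in the GRK-deficient hearts. Their pooled ratio was 0.957 (95% exact interval 0.88 to 1.04, exact permutation p = 0.385), and the 2 groups overlapped. Grk5 exons 7 to 8 were at 0.296 of wild type (95% exact interval 0.224 to 0.391, exact permutation p = 3.67e-05) and Adrbk1 exons 3 to 6 at 0.578 (0.458 to 0.73, exact permutation p = 0.00664). The Adrbk1 value pools haploinsufficient and triple-knockout hearts, which differ in Grk2. Some exons outside these stretches, picked after their values were seen, fell too. Mean CPM in wild type and GRK-deficient hearts was 3.84 and 1.91 on Adrbk1 exon 17 and 1.13 and 0.339 on Grk5 exon 11. Grk5 exons 3 (0.327 and 0.507) and 15 (1.14 and 1.26) were higher in GRK-deficient hearts. Whether Grk5 exons 7 to 8 and Adrbk1 exons 3 to 6 fell more than the rest was not tested. Nkx2-5 (mm10, chromosome 17, 26838665 to 26841565), the cardiac homeobox gene that gives the driver its name, fell from 82.9–114 CPM (median 99.2) to 26.5–94.1 CPM (median 59.7) (-0.71 ± 0.15 SE, edgeR adjusted p = 0.00659), and 13 of 15 GRK-deficient libraries were below every wild-type library. With the tissue score as a term its value was -0.45 and the call was lost (edgeR adjusted p = 0.115). Nkx2-5 exon 2 was at 54.4 to 77.8 CPM in wild type and 14.3 to 51.4 CPM in the GRK-deficient hearts, with no overlap (exact permutation p = 2.04e-06), whereas exon 1 was at 27.9 to 36.4 and 12.2 to 42.7 CPM and overlapped (exact permutation p = 0.0499 on the log scale and 0.0663 on CPM).

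**Figure D1:**
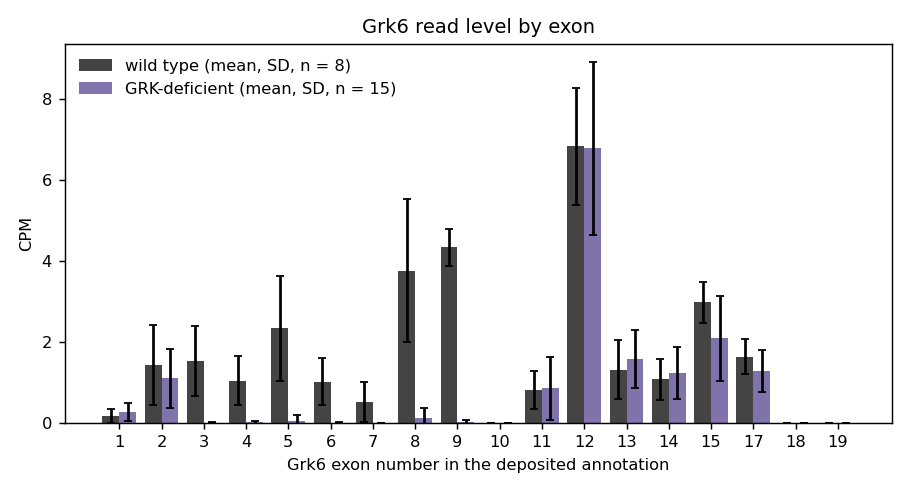
Mean CPM on each Grk6 exon, numbered as in the deposited annotation, in 8 wild-type (dark) and 15 GRK-deficient (violet) libraries, with bars of 1 SD. Exons 3 to 9 are near 0 in the GRK-deficient libraries, where they hold 16 counts in all, and exons 11 to 17 are at like heights in both groups.

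In the pooled comparison 249 of 13941 genes passed the edgeR test at an adjusted p of 0.05 (1.79%), the targeted genes and Cre not counted. Of these 92 were higher (0.66%) and 157 lower (1.13%) in the GRK-deficient hearts. The median log2 fold change of all genes was 0.01. Among the called genes 142 changed by at least 1.5-fold and 58 by at least 2-fold, 28 of them higher and 30 lower. For 28 genes (0.201%) the 15 and the 8 libraries did not overlap at all, 14 in each direction (0.1% each), and each of these 28 was called. Without the 7 libraries of a high tissue score 76 genes were higher and 101 lower, with 132 of the 249 among them. With the score as a term 89 were higher and 88 lower, with 107 of the 249 among them, so that the share of higher genes moved from 36.9% to 50.3%. All 249 genes kept their sign in both settings.

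**Figure D2:**
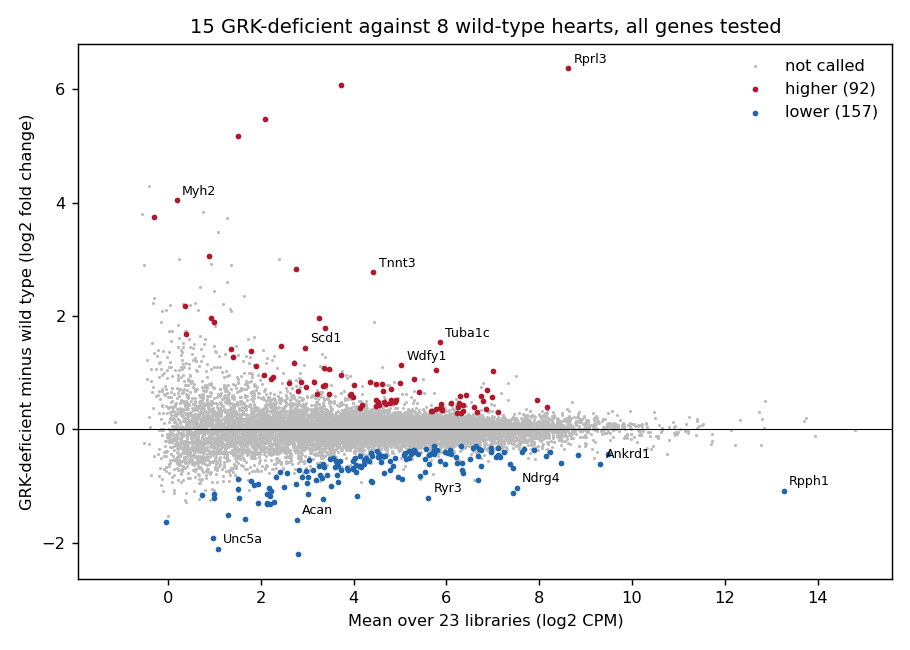
Log2 fold change (GRK-deficient minus wild type) of the 13941 genes tested against their mean log2 CPM over 23 libraries, with the 92 called higher genes in red and the 157 called lower genes in blue. Most called genes lie within 2-fold of no change, and Tnnt3, Myh2, Acan and Unc5a stand among the outlying named genes.

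Muscle genes were among those that changed. Tnnt3 (mm10, chromosome 7, 142498836 to 142516009), which encodes the troponin T of fast skeletal muscle, was at 3.49 to 9.77 CPM (median 6.53) in wild type and 23 to 91.3 CPM (median 31.9) in the GRK-deficient hearts. All 15 GRK-deficient libraries were above all 8 wild-type libraries, and Tnnt3 rose 6.81-fold (log2 fold change 2.77 ± 0.32 SE, edgeR adjusted p = 1.23e-05). Tnnt1, the troponin T of slow skeletal muscle, was at 231 to 339 CPM (median 304) in wild type and 71.5 to 211 CPM (median 135) in GRK-deficient hearts and fell without overlap (-1.11 ± 0.14 SE, edgeR adjusted p = 7.18e-06). Ryr3 (mm10, chromosome 2, 112631382 to 113030331), a calcium release channel of the sarcoplasmic reticulum, fell from 57.2–114 CPM (median 92.6) to 17.8–59.2 CPM (median 40.5) (-1.20 ± 0.18 SE, edgeR adjusted p = 0.0003002), and 14 of 15 libraries were below every wild-type library.

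The change in troponin T isoforms was read against the other genes of skeletal muscle. Of 21 tested isoform and lineage genes, 3 rose and 1 fell (19% called, against 1.79% of all genes), with a list median of -0.06. A negative log2 fold change was found in 13 of the 21. Like the other lists here, it was chosen with earlier results of these data known, so its share supports nothing by itself. The members that rose besides Tnnt3 were Myh2, a fast myosin heavy chain, and Tnni2, the troponin I of fast muscle. DESeq2 called these 3 higher and Tnnt1, Actn3 and Casq1 lower, and limma called Tnnt3 and Tnni2 higher and Tnnt1 lower. The list as a whole thus did not move in 1 direction. Tnni2 (mm10, chromosome 7, 142442468 to 142444405) lies close to Tnnt3. Whether the calls of Tnnt3 and Tnni2 are separate was not tested. Myh2 was at 0 to 0.543 CPM (median 0.037) in wild type and 0.445 to 6.84 CPM (median 2.16) in GRK-deficient hearts, and 14 of 15 were above every wild-type library (4.04 ± 0.59 SE, edgeR adjusted p = 5.27e-05). Its wild-type levels were near 0, so the size of its fold change depends on the prior count. Tnni2 went from 22.7–33.2 CPM (median 26.1) to 28.2–76.6 CPM (median 49.7) (0.88 ± 0.15 SE, edgeR adjusted p = 0.00038), with 13 of 15 above every wild-type library. The same 3 and 1 counts were found without the libraries of a high tissue score and with the score as a term. Of 28 cardiac sarcomere genes 0 passed the edgeR test, 4 were lower at an unadjusted p under 0.05, and DESeq2 and limma also called 0. Their median was -0.09, and it was 0.08 without the libraries of a high tissue score and 0.14 with the score as a term, which called 1 of them higher. Of 30 genes of calcium release and the sarcoplasmic reticulum Ryr3 alone passed the edgeR test (3.33%).

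Several genes stood out by separation more than by size. Wdfy1 (mm10, chromosome 1, 79702262 to 79761769), which encodes an endosomal protein that binds phosphoinositides, was at 16.2 to 23.2 CPM (median 19.5) in wild type and 38 to 48.9 CPM (median 42.6) in GRK-deficient hearts (1.13 ± 0.08 SE, edgeR adjusted p = 4.95e-11). The groups did not overlap, and no other tested gene had a smaller p. In the deposited FPKM values its difference was 0.24 on the log2(FPKM + 1) scale and was not called (limma adjusted p = 0.378). Tuba1c (mm10, chromosome 15, 99029891 to 99038105), an alpha-tubulin gene of a family with near-identical members, was at 16 to 35.6 CPM (median 32.8) and 39.4 to 131 CPM (median 81.1) (1.54 ± 0.19 SE, edgeR adjusted p = 1.37e-05), with no overlap. On log2(FPKM + 1) its difference was 0.28 (limma adjusted p = 0.0323), and its counts are uncertain where reads could be shared within the family. Glo1, the glyoxalase that detoxifies methylglyoxal, rose from 78.9–100.1 CPM (median 82.8) to 109–166 CPM (median 142) (0.70 ± 0.09 SE, edgeR adjusted p = 4.91e-06). Rab4a, a small GTPase of the recycling endosome, was at 6.68 to 10.5 CPM (median 8.02) in wild type and 10.9 to 24.5 CPM (median 16.5) in GRK-deficient hearts (0.96 ± 0.14 SE, edgeR adjusted p = 9.16e-05). Neither gene had an overlap between groups. Ciapin1, an iron-sulfur cluster assembly factor, went from 52.8–64.8 CPM (median 60.8) to 72.6–129 CPM (median 83.6) (0.59 ± 0.09 SE, edgeR adjusted p = 0.000195), also without overlap. Dynlt1b (1.97) and Tmem181b-ps (1.05), neighbours in a duplicated stretch of chromosome 17 with near-identical copies, were higher without overlap and are uncertain for that reason.

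Among the lower genes that did not overlap, Ndrg4 (mm10, chromosome 8, 95703037 to 95715119), a gene needed for growth of heart muscle cells in zebrafish, had one of the highest levels. It was at 241 to 350.01 CPM (median 293) in wild type and 94.9 to 195 CPM (median 153) in GRK-deficient hearts (-1.03 ± 0.11 SE, edgeR adjusted p = 2.44e-07). Tox3, an HMG-box transcription regulator, fell from 23.4–38.3 CPM (median 32) to 11–23.4 CPM (median 15.9), where the extremes of the groups nearly met (-0.92 ± 0.12 SE, edgeR adjusted p = 1.70e-05). Igfbpl1, which resembles the binding proteins of insulin-like growth factors, fell from 12.3–23.4 CPM (median 19.9) to 2.23–12.1 CPM (median 8.01) (-1.22 ± 0.18 SE, edgeR adjusted p = 5.27e-05). Psmc4, an ATPase subunit of the proteasome, was a further member of this set. It was at 146 to 183 CPM (median 154) in wild type and 45.9 to 121 CPM (median 81.3) in GRK-deficient hearts (-0.89 ± 0.13 SE, edgeR adjusted p = 9.72e-05). Ppp1r1b, the phosphatase inhibitor DARPP-32 that is phosphorylated by protein kinase A, fell from 12–17 CPM (median 14.3) to 4.71–11.2 CPM (median 8.67) (-0.85 ± 0.14 SE, edgeR adjusted p = 0.00021). Rcan1, an inhibitor of the phosphatase calcineurin, fell from 147–195 CPM (median 160.03) to 84.7–146 CPM (median 119) (-0.48 ± 0.08 SE, edgeR adjusted p = 0.000476). The Rcan1 groups met within 1 CPM without crossing. Ide, the insulin-degrading enzyme, Synj2, an inositol phosphatase, and Pafah2, a phospholipase, completed the named set at -0.72 ± 0.10, -0.49 ± 0.09 and -0.41 ± 0.11 SE. Of these Pafah2 was the least firm (edgeR adjusted p = 0.0427), and it was not called in 16 of the 23 fits that left out 1 library, without the libraries of a high tissue score (0.204) or with the score as a term (0.251).

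**Figure D3:**
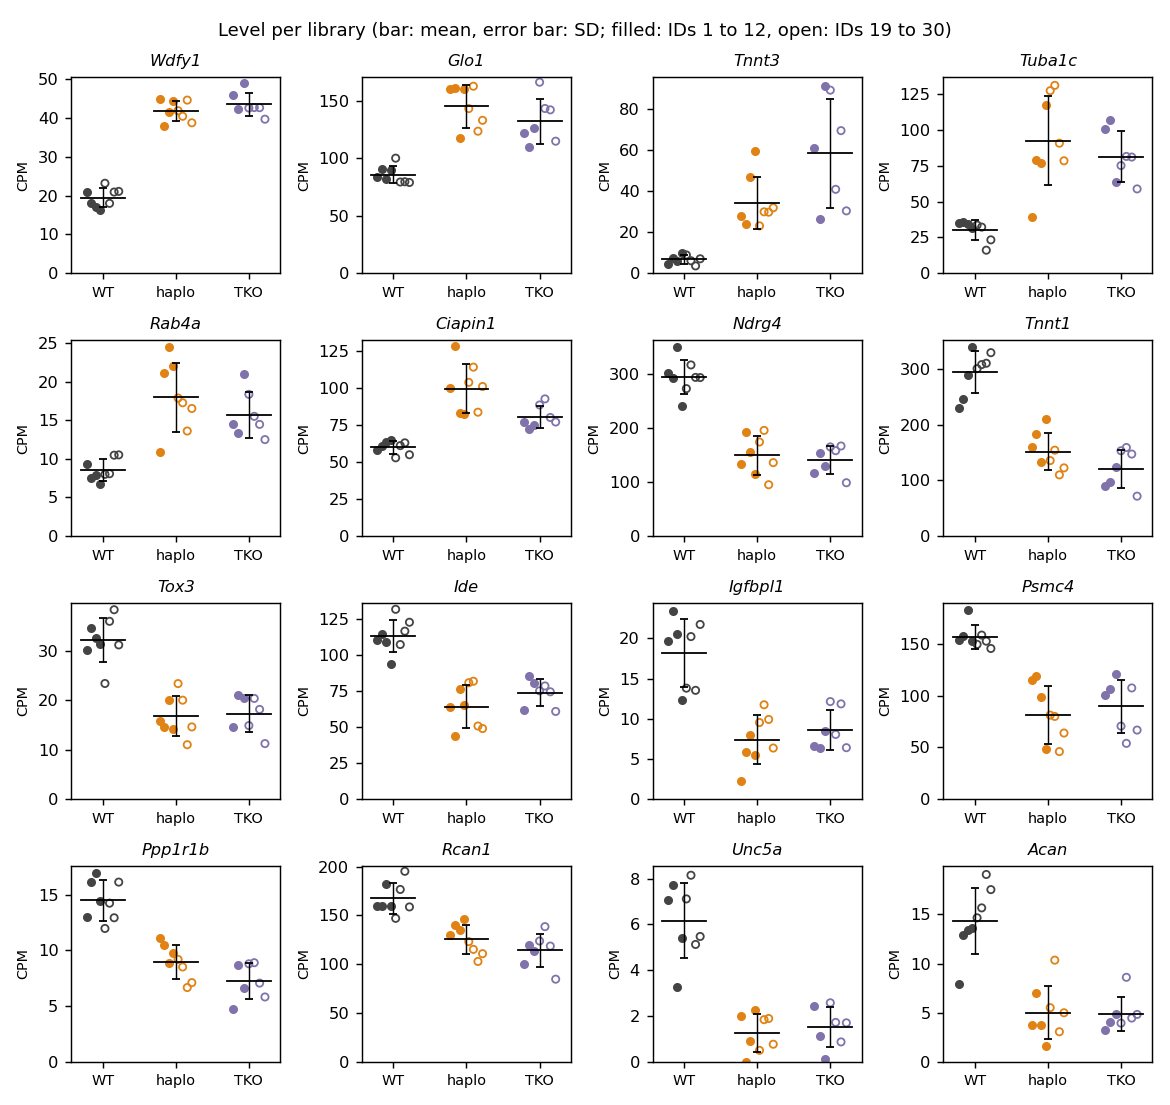
CPM of 16 named genes in each library, by group (8 wild type, 8 haploinsufficient, 7 triple knockout), with the mean and SD as bars; filled points are library IDs 1 to 12 and open points IDs 19 to 30, and each axis starts at 0. Except for Acan, whose groups overlap, every GRK-deficient point lies on 1 side of every wild-type point.

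Small RNA genes and unnamed gene models held the other 6 genes that were higher without overlap. Rprl3, 1 of 3 genes that resemble the RNA of ribonuclease P, was at 6.25 to 136 CPM (median 16.2) in wild type and 990.2 to 4943 CPM (median 2009) in the GRK-deficient hearts. Rprl2 (6.07) and Rprl1 (5.17) were higher too, and so were the gene models Gm10653 (1.78), Gm8580 (2.83) and Gm5801 (3.75). Rpph1, the ribonuclease P RNA itself, was lower at 4199.6 to 15741 CPM (median 6643) against 13566 to 20141 CPM (median 16445) (-1.08 ± 0.18 SE, edgeR adjusted p = 0.000388), and its groups overlapped. The Rprl genes and Rpph1 are near-identical over part of their length, which leaves the assignment of reads, and with it each of these values, uncertain.

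Beyond these, the highest fold changes included a glutamate receptor and a desaturase. Grin2c, a subunit of NMDA receptors, was at 0.136 to 1.51 CPM (median 0.901) in wild type and 0.584 to 5.51 CPM (median 3.42) in GRK-deficient hearts (1.90 ± 0.33 SE, edgeR adjusted p = 0.000532). Itih3, which binds hyaluronan in the matrix, rose from 1.99–3.99 CPM (median 2.63) to 2.97–14 CPM (median 7.13) (1.47 ± 0.23 SE, edgeR adjusted p = 0.000195). In both genes 14 of the 15 libraries were above every wild-type library. Hmga2-ps1, a pseudogene, rose by 1.38 and Mamdc2, a matrix proteoglycan gene, by 1.12 on the log2 scale (edgeR adjusted p = 0.000422 and 0.00329). The chloride channel gene Clic6 (1.41), the transcription factor gene Csrnp3 (1.28) and the bicarbonate transporter gene Slc4a8 (1.17) passed the main test too (edgeR adjusted p = 0.0305, 0.033 and 0.026). Without the libraries of a high tissue score none of the 3 was called (edgeR adjusted p = 0.369, 0.071 and 0.132), and Clic6 was at 0.86. Clic6 and Slc4a8 were not called with the score as a term either (edgeR adjusted p = 0.542 and 0.073). At the other end Unc5a (mm10, chromosome 13, 54949432 to 55006018), a receptor for the guidance protein netrin, was at 3.26 to 8.15 CPM (median 6.27) in wild type and 0 to 2.58 CPM (median 1.7) in GRK-deficient hearts (-2.10 ± 0.31 SE, edgeR adjusted p = 5.27e-05), with no overlap. Lrtm1, a leucine-rich repeat membrane protein gene, fell by 1.58 and Tmem88b by 1.32 on the log2 scale, both without overlap (edgeR adjusted p = 2.34e-05 and 5.70e-05). The RNA-binding protein gene Celf4 (-1.30), the homeobox gene Irx6 (-1.29), the activin-type receptor gene Acvr1c (-1.28) and the cytokine gene Il15 (-1.21) fell with overlap (edgeR adjusted p from 0.0016 to 0.0122). With the tissue score as a term Irx6, Acvr1c and Il15 were not called (edgeR adjusted p = 0.0704, 0.0571 and 0.129).

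Of the genes of cholesterol supply a part rose and none fell. Most of them respond to the transcription factor SREBP2, which is released from the endoplasmic reticulum when sterols are low and binds promoters beside the factor NF-Y. Of 29 tested genes of synthesis and uptake, 10 rose and 0 fell (34.5% called, against 0.66% of all genes called higher). Of the 29, 26 had a positive log2 fold change, with a median of 0.34 against 0.01 over all genes. This list too was chosen with earlier results of these data known, so its share is a description and not a test. Hmgcs1 (mm10, chromosome 13, 119690462 to 119708077), which makes HMG-CoA for the pathway, was at 71.3 to 92.5 CPM (median 82.7) in wild type and 91.4 to 151 CPM (median 125) in GRK-deficient hearts. It rose 1.51-fold (0.59 ± 0.08 SE, edgeR adjusted p = 3.00e-05), and 14 of 15 libraries were above every wild-type library. Hmgcs1 lies near Nnt (chromosome 13, 119334317 to 119409138), which rose as well and is read below among genes that vary between strains. Whether the calls of Hmgcs1 and Nnt are separate was not tested. Insig1, which holds SREBPs in the endoplasmic reticulum and is itself a target of them, rose from 24.2–39.1 CPM (median 32) to 35.2–60.2 CPM (median 51.5) (0.66 ± 0.11 SE, edgeR adjusted p = 0.000207). In Insig1 13 of the 15 libraries were above the highest wild-type library. Also called were the squalene synthase gene Fdft1 (0.37), the lanosterol synthase gene Lss (0.51), the demethylase gene Cyp51 (0.45), the isoprenoid genes Idi1 (0.48) and Fdps (0.40), the thiolase gene Acat2 (0.60) and the sterol carrier gene Stard4 (0.52). Sqle, squalene epoxidase, was at 0.35 ± 0.10 and was not called. Without the libraries of a high tissue score 7 members were called and the median was 0.34, with Lss, Cyp51, Stard4 and Acat2 no longer called and 1 other member added. With the score as a term 5 were called and the median was 0.29, with these 4, Idi1 (edgeR adjusted p = 0.122) and Fdps (0.0568) no longer called. Acat2 was not called in 15 and Fdps in 4 of the 23 fits that left out 1 library. Of 18 fatty acid synthesis genes 1 rose (5.56%): Scd1, the stearoyl-CoA desaturase, was at 2.21 to 6.79 CPM (median 4.07) in wild type and 2.07 to 20.05 CPM (median 12.3) in GRK-deficient hearts (1.44 ± 0.26 SE, edgeR adjusted p = 0.000905). Scd1 was at 2.21 in IDs 1 to 12 and 0.88 in IDs 19 to 30 on the log2 scale. Of 14 genes of cholesterol efflux 0 passed the edgeR test, with 1 lower at an unadjusted p under 0.05 and 0 called by DESeq2 or limma.

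The promoter letters of these genes are shown because 26 of the 29 members had positive values. They come from RefSeq (GRCm38.p6, the assembly of mm10), 5′ to 3′ on the strand of the gene. Of the 29 genes 21 had a promoter entry, and the 250 bases before the start were searched on both strands. The sterol regulatory element CACCCCAC was found in 2 of the 21, Hmgcs1 and Acat2, and in 2.98% of 27025 genes with an entry. It is in capitals here:
Hmgcs1, chr13:119690169-119690268, plus strand: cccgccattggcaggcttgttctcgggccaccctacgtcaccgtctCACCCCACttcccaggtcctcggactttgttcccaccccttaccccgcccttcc
Acat2, chr17:12960853-12960952, minus strand: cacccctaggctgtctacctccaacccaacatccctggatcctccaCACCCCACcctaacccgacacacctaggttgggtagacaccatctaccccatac
The box CCAAT, the motif that NF-Y binds, was found on either strand (as CCAAT or its complement ATTGG) in 19 of the 21 and in 37.5% of all genes. It is in capitals in the stretches that hold the box nearest the start for 5 of the called genes:
Hmgcs1, chr13:119690271-119690350, plus strand: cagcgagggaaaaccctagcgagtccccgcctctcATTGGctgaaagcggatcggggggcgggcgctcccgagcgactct
Insig1, chr5:28071166-28071245, plus strand: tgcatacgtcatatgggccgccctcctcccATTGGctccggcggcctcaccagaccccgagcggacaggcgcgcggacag
Lss, chr10:76531513-76531592, plus strand: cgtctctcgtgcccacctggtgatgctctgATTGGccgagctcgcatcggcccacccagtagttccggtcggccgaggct
Cyp51, chr5:4104698-4104777, minus strand: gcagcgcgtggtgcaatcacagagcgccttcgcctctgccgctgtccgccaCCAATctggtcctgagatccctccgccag
Idi1, chr13:8885526-8885605, plus strand: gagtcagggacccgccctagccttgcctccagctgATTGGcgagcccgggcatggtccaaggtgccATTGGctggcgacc
The 2 motifs share no letters in overlap in these stretches. A match is a description of the letters and not a measured binding site.

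Most genes placed downstream of Nkx2-5 had lower values in the main fit. Both this direction and the count called depended on the libraries of a high tissue score. Of 25 tested, 4 fell and 0 rose (16%, against 1.13% of all genes called lower), and 20 had a negative log2 fold change (median -0.21). The list was chosen with earlier results of these data known, so this share is a description and not a test. Ankrd1, a stress-responsive ankyrin repeat protein of the sarcomere and nucleus, was at 730.3 to 1045 CPM (median 835) in wild type and 422 to 755 CPM (median 559.98) in GRK-deficient hearts (-0.61 ± 0.10 SE, edgeR adjusted p = 0.000394). Nppb, which encodes B-type natriuretic peptide, fell from 94.1–152 CPM (median 120.4) to 45.8–104 CPM (median 68.3) (-0.77 ± 0.12 SE, edgeR adjusted p = 0.000298). Kcne1, the subunit of the slow delayed rectifier potassium channel, fell from 32.2–42.8 CPM (median 38.7) to 13.8–38 CPM (median 24.9) (-0.71 ± 0.13 SE, edgeR adjusted p = 0.00184). In each of these 3 genes 14 of the 15 libraries were below every wild-type library. Myocd, the coactivator of serum response factor, was at -0.44 ± 0.10 SE (edgeR adjusted p = 0.018). Without the libraries of a high tissue score 3 members were lower and 1 higher (median -0.07), and with the score as a term 2 were lower and 1 higher (median 0.03). Positive values were held by 11 of the 25 in the former setting and 13 in the latter, against 5 in the main fit. Myocd was lost in both (0.177 and 0.401) and Kcne1 with the score as a term (0.0927, all edgeR adjusted p). The part of the other tissues in this list was not tested beyond these 2 settings. Of 19 conduction system channel genes Kcne1 and Kcnd2 fell (10.5%, against 1.13% of all genes called lower). Kcnd2 encodes a subunit of the transient outward potassium channel. Of the 19 genes, 10 had a positive log2 fold change (median 0.01). Without the libraries of a high tissue score 2 channel genes were higher and 2 lower, and with the score as a term 3 were higher and 1 lower. Kcnd2 went from 8.19–14.1 CPM (median 10.5) to 1.75–10.2 CPM (median 5.16) (-0.97 ± 0.19 SE, edgeR adjusted p = 0.00311). Of 28 cardiac transcription factors 0 passed the edgeR test, 1 was higher and 3 were lower at an unadjusted p under 0.05, and DESeq2 and limma called 0.

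**Figure D4:**
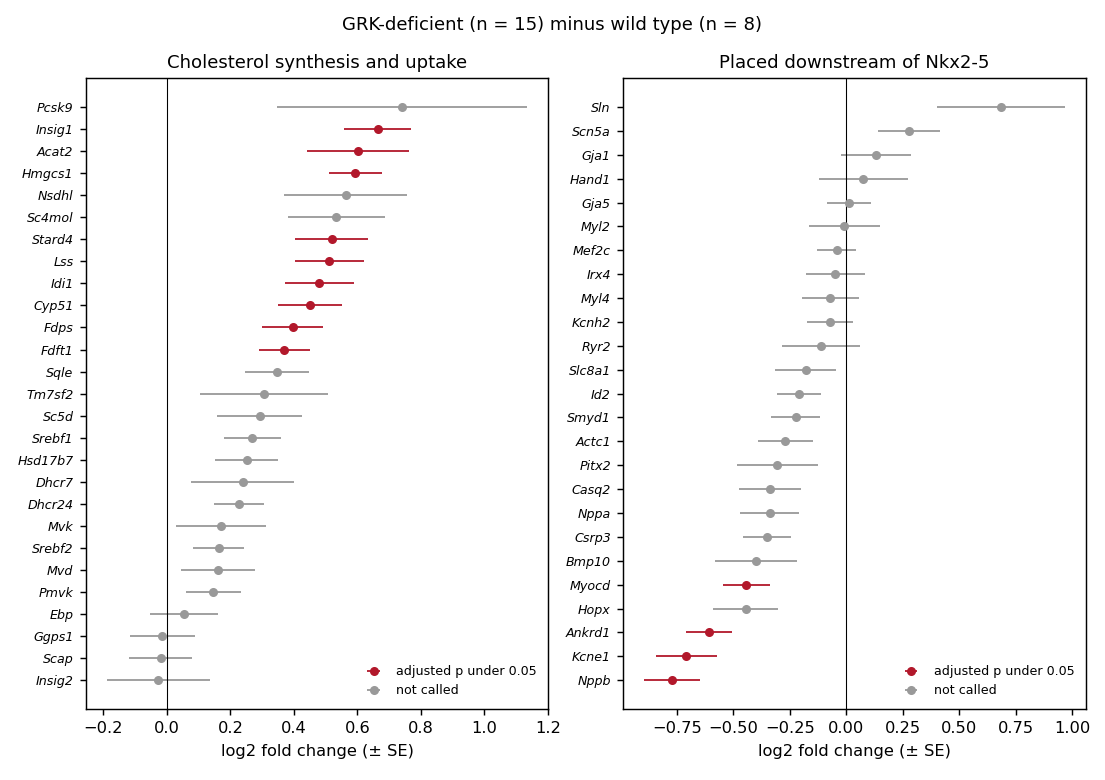
Log2 fold change with its SE for 27 of the 29 tested genes of cholesterol synthesis and uptake (left) and the 25 placed downstream of Nkx2-5 (right), in 15 GRK-deficient against 8 wild-type libraries; called genes are red. In this main fit 24 of 27 on the left lie above 0 and 9 are called higher, and 20 of 25 on the right lie below 0 and 4 are called lower.

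Matrix and valve genes gave few calls, and the shares here stand against 1.79% of all genes called in either direction. The share of the canal and cushion list, 2.86%, was the nearest to it. Acan (mm10, chromosome 7, 79053483 to 79115099), the large proteoglycan of cartilage and of valve primordia, was at 7.95 to 19.1 CPM (median 14.1) in wild type and 1.62 to 10.3 CPM (median 4.45) in GRK-deficient hearts (-1.59 ± 0.19 SE, edgeR adjusted p = 1.67e-06). Comp, cartilage oligomeric matrix protein, fell from 2.26–7.88 CPM (median 5.23) to 0.384–4.68 CPM (median 1.74) (-1.50 ± 0.30 SE, edgeR adjusted p = 0.00312). In Acan 13 and in Comp 11 of the 15 libraries were below every wild-type library. They were the 2 called members of 17 tested cartilage-type matrix genes (11.8%, list median -0.02), and Comp was not called with the tissue score as a term (edgeR adjusted p = 0.0691). Of 35 genes of the atrioventricular canal and cushions 1 passed the test (2.86%, list median -0.12), Bmp5, a bone morphogenetic protein, which was higher at 11.4 to 26.9 CPM (median 19.4) against 5.95 to 17.2 CPM (median 12.4) (0.57 ± 0.15 SE, edgeR adjusted p = 0.044). The call of Bmp5 was lost in 17 of the 23 fits that left out 1 library and with the tissue score as a term (0.53, edgeR adjusted p = 0.156). Among 29 tested guidance genes Unc5a and Slit2 fell (6.9%), and Slit2, a ligand of Robo receptors, went from 199.5–303 CPM (median 231) to 96.8–207 CPM (median 148) (-0.68 ± 0.11 SE, edgeR adjusted p = 0.000419). Of 20 genes of the Hippo pathway and the CCN family Ankrd1, Ctgf and Wisp1 fell (15%), with Ctgf at -0.59 ± 0.11 and Wisp1 at -0.43 ± 0.10 SE (edgeR adjusted p = 0.00262 and 0.0158). Ctgf, a secreted matricellular protein, was at 73.8 to 145 CPM (median 107) in wild type and 48.9 to 96.6 CPM (median 70.5) in GRK-deficient hearts. Wisp1 was not called in either tissue setting (edgeR adjusted p = 0.0634 and 0.197).

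EdgeR called none of the signalling genes closest to the targeted kinases. Of the 5 tested kinases and arrestins that were not targeted 0 were called by edgeR, DESeq2 or limma, with 2 lower at an unadjusted p under 0.05. Grk4, which is best known from testis and kidney, was at 21.2 to 206 CPM (median 37.4) in wild type and 13.1 to 66.6 CPM (median 27.4) in GRK-deficient hearts (-0.70 ± 0.27 SE, edgeR adjusted p = 0.25), with wild-type replicate 2 far above the others. Without that library the Grk4 value was -0.24 (edgeR adjusted p = 0.65). Of 26 genes of beta-adrenergic and cAMP signalling edgeR called 0, with 1 higher and 3 lower at an unadjusted p under 0.05 (median -0.08), while DESeq2 called Pde3b higher and Adrb3 lower and limma called 0. Of 27 receptors for ligands of the fetal heart edgeR called 0, with 3 higher and 2 lower at an unadjusted p under 0.05 (median 0.00), while DESeq2 called Calcrl lower and limma called 0. Of 20 hedgehog pathway genes edgeR, DESeq2 and limma called 0, with 3 higher at an unadjusted p under 0.05. Gli1, the transcription factor that reports hedgehog signalling, was at 0.222 to 12.3 CPM (median 1.81) in wild type and 0 to 40.4 CPM (median 5.54) in GRK-deficient hearts (2.35 ± 0.95 SE, edgeR adjusted p = 0.293), and its value was -0.67 with the tissue score as a term. The hedgehog list median was 0.17, and it was -0.15 without the libraries of a high tissue score and -0.29 with the score as a term.

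Markers of other cell types were read for the same 23 libraries. Their shares stand against 1.79% of all genes called in either direction. Of 25 endothelial and endocardial markers 3 fell (12%), Npr3 (-0.49 ± 0.08 SE), a natriuretic peptide receptor of the endocardium, Tek (-0.39 ± 0.08 SE), a receptor for angiopoietins, and Ramp2 (-0.35 ± 0.08 SE), a partner of the adrenomedullin receptor (edgeR adjusted p = 0.000636, 0.00358 and 0.0198). The sum of this list was 1931 to 2529 CPM (median 2229) in wild type and 1842 to 2318 CPM (median 1971) in GRK-deficient hearts. Npr3, at 154 to 197 CPM (median 181) in wild type and 92.5 to 159 CPM (median 123) in GRK-deficient hearts, was the member still called in both tissue settings, whereas Tek and Ramp2 were not. Cdh5, the cadherin of endothelial junctions, was at -0.35 ± 0.12 SE and was not called (edgeR adjusted p = 0.18). Of 9 lymphatic and sinusoidal markers Mrc1 (0.67) and Lyve1 (0.84) rose (22.2%, edgeR adjusted p = 0.00795 and 0.0295), and neither was called in the 2 tissue settings. In this list 3 of the 9 had a negative log2 fold change. DESeq2 called Stab2, Lyve1 and Mrc1 higher and Clec4g lower, and limma called Mrc1 higher and Clec4g lower. Of 14 smooth muscle and mural cell genes Tagln fell (-0.37 ± 0.10 SE, edgeR adjusted p = 0.03999, 7.14%), and it was lost in 16 of the 23 fits that left out 1 library and in both tissue settings. Of 16 macrophage and platelet markers Lyz2 (-0.93) and Itga2b (-0.68) fell (12.5%, edgeR adjusted p = 0.00878 and 0.0378), where Lyz2 shares reads with its copy Lyz1, itself at -1.92, and Itga2b was lost in both tissue settings and in 13 of the 23 fits that left out 1 library. Of the 16 markers 11 had a positive log2 fold change, and the list median was 0.17. The macrophage and platelet sum was 156 to 240.3 CPM in wild type and 136 to 244 CPM in GRK-deficient hearts. Of 11 tested neural markers Gap43, a growth cone protein, rose (0.42 ± 0.10 SE, edgeR adjusted p = 0.0254, 9.09%), the list median was 0.79, and it was 0.11 in both tissue settings, where Gap43 was not called. The neural sum was 175 to 246 CPM in wild type and 177 to 354 CPM in GRK-deficient hearts. EdgeR called 0 of 13 epicardial, 0 of 8 red cell, 0 of 30 S phase, 0 of 24 mitosis, 0 of 31 oxidative phosphorylation, 0 of 26 glycolysis, 0 of 19 immediate early and 0 of 20 protein stress genes. At an unadjusted p under 0.05 these lists held 1, 0, 8, 4, 0, 0, 5 and 6 genes in that order, DESeq2 called Mcm4 and Uhrf1 of S phase and none of the others, and limma called Slc7a11 of the stress list and none of the others. Among the S phase genes 27 of 30 had a positive log2 fold change (median 0.16), with Mcm4, a subunit of the replicative helicase, at 0.34 ± 0.10 SE (edgeR adjusted p = 0.0636).

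Genes known to vary between inbred mouse strains were read because a targeted allele can carry flanking segments of the strain it was made in. Of 8 tested, 4 were higher and 2 lower (75%, against 1.79% of all genes). The list was put together with earlier results of these data in view, so its share supports nothing by itself. Besides Wdfy1, Glo1 and Ide these were Nnt, Dnahc8 and Cyp2d22. Glo1 (chromosome 17, 30592862 to 30612659) and Dnahc8 (30626936 to 30875264) lie close together and are not separate positions, and both are within 10 Mb of Nkx2-5. Wdfy1 (chromosome 1) and Cyp2d22 (chromosome 15) lie on chromosomes without a targeted locus. Nnt (chromosome 13, 119334317 to 119409138) and Ide (chromosome 19, 37268741 to 37330613) lie more than 10 Mb from the targeted loci on theirs. Whether any of these calls comes from a flanking segment was not tested. Nnt, the mitochondrial transhydrogenase that is partly deleted in C57BL/6J mice, was at 177 to 224 CPM (median 199) in wild type and 191 to 343 CPM (median 298) in GRK-deficient hearts (0.51 ± 0.10 SE, edgeR adjusted p = 0.00311). In Nnt 12 of the 15 libraries were above every wild-type library. Dnahc8, an axonemal dynein, was at 0.79 and Cyp2d22, a cytochrome P450, at -0.74 (edgeR adjusted p = 0.01999 and 0.0469), and the Cyp2d22 call was lost in 18 of the 23 fits that left out 1 library. The counts of 4 and 2 were the same in both tissue settings.

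The positions of called genes were set against the targeted loci. Within 10 Mb of the 4 loci 10 of 721 tested genes were called (1.39%), against 239 of 13220 elsewhere (1.81%). The Grk5 locus held 2 of 45 (4.44%), the Nkx2-5 locus 6 of 333 (1.8%), the Grk6 locus 1 of 128 (0.781%) and the Adrbk1 locus 1 of 215 (0.465%). Unc5a lies 0.44 Mb from Grk6, Neurl1b 0.39 Mb and Glo1 3.75 Mb from Nkx2-5. Neurl1b, a ubiquitin ligase of the Notch pathway, fell from 84–109 CPM (median 90.1) to 45.7–88.3 CPM (median 67.4) (-0.48 ± 0.10 SE, edgeR adjusted p = 0.00289). Tnxb, tenascin X, near Nkx2-5, Csf2ra, a cytokine receptor chain, near Grk5, and Cpt1a, the carnitine transferase of fatty acid import, near Adrbk1 fell as well, by 0.55, 0.62 and 0.37 on the log2 scale, and D19Ertd737e near Grk5 rose by 0.44 (edgeR adjusted p = 0.00239, 0.00226, 0.0392 and 0.0225). Unlike Unc5a and Glo1, these 5 were not called with the tissue score as a term, and Cpt1a and D19Ertd737e were not called without the libraries of a high score either. By chromosome the largest share of called genes was on chromosome 8, which holds none of the loci, with 30 of 748 (4.01%), followed by chromosome 18 with 13 of 377 (3.45%) and chromosome 19 with 16 of 470 (3.4%). Most called genes of chromosome 8 lay in 3 stretches, found after the values were seen by joining called genes less than 5 Mb apart. The first ran from 68.3 to 71.5 Mb, with 2 higher and 4 lower of 79 tested genes (7.59%). The second ran from 82.3 to 95.7 Mb, with 4 higher and 8 lower of 127 (9.45%). The third ran from 122.6 to 125.3 Mb, with 4 higher and 3 lower of 49 (14.3%). For all genes the share was 1.79%, but the stretches were drawn around called genes, so their shares are high by construction. Ndrg4, Tox3, Irx6, Il15, Comp and Ciapin1 are among the named genes of chromosome 8, and so is Rab4a. On chromosome 16 Kcne1 (92346001 to 92359468), Rcan1 (92391953 to 92466146) and Clic6 (92498147 to 92541241) lie close together. Kcne1 and Rcan1 fell and Clic6 rose, and whether their calls are separate was not tested.

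The 2 sets of library IDs share no library, so each gives a separate reading. IDs 1 to 12 alone (7 against 4 libraries) gave 25 called genes of 13294 (0.188%) and IDs 19 to 30 alone (8 against 4) gave 123 of 13852 (0.888%). These counts moved with single libraries, to 8 without wild-type replicate 2 and 39 without haploinsufficient replicate 4 in the former, and to 38 without wild-type replicate 6 and 155 without haploinsufficient replicate 6 in the latter. All 25 genes of IDs 1 to 12 had the same direction and an unadjusted p under 0.05 in IDs 19 to 30, where 11.7% of all genes tested had such a p in either direction, and 19 were called there too. Of the 123 genes of IDs 19 to 30, 120 were tested in IDs 1 to 12, 110 had the same direction and 70 also an unadjusted p under 0.05 (58.3%, against 6.51% of all genes in either direction). The 19 genes called in both include Wdfy1, Ndrg4, Acan, Tnnt3, Tuba1c, Tox3, Hmgcs1, Igfbpl1 and Rab4a. Tnnt3 was at 2.82 and 2.72 and Acan at -1.60 and -1.58 on the log2 scale in IDs 1 to 12 and 19 to 30. A test of the difference between the sets called 0 genes with edgeR and 0 with DESeq2, with 705 of 13941 genes at an unadjusted p under 0.05.

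**Figure D5:**
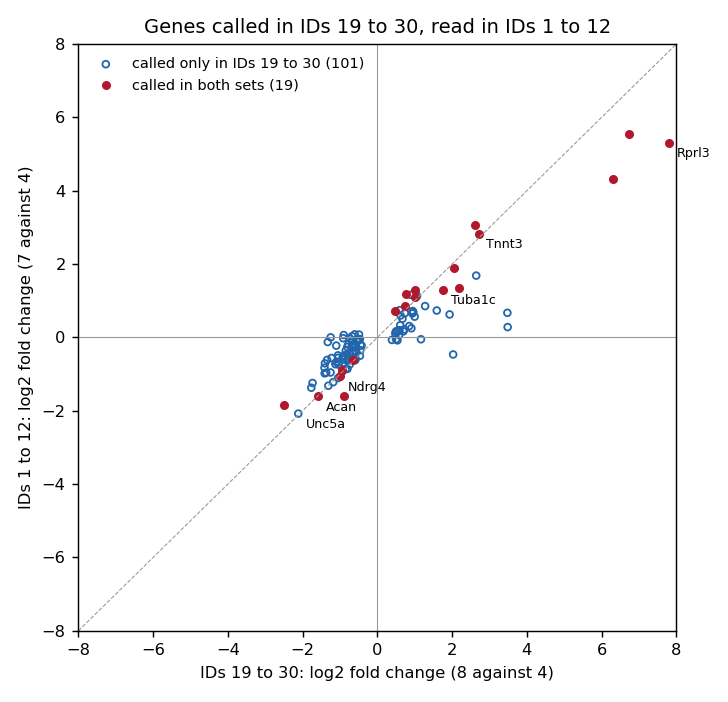
Log2 fold change (GRK-deficient minus wild type) of the 120 genes called in library IDs 19 to 30 and tested in both sets, read in IDs 19 to 30 (8 against 4 libraries) on the horizontal axis and in IDs 1 to 12 (7 against 4) on the vertical axis; the dashed line marks equal values. The genes lie in the same quadrant in 110 cases, and the 19 called in both sets are filled.

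The pooled groups were also set against each other, which uses no wild-type level. Between triple-knockout and haploinsufficient hearts 45 of 13941 genes were called (0.323%), and of the 249 genes of the pooled comparison Rpph1 alone was among them (-0.83 ± 0.16 SE, edgeR adjusted p = 0.0157). Tnnt3 had means of 34.1 ± 12.6 CPM (SD, n = 8) in haploinsufficient and 58.4 ± 26.7 CPM (SD, n = 7) in triple-knockout hearts, a difference of 0.80 ± 0.26 SE on the log2 scale that did not pass (edgeR adjusted p = 0.16). Ryr3 had means of 29.4 ± 9.55 and 48.2 ± 7.58 CPM (0.70 ± 0.17 SE, edgeR adjusted p = 0.0703). Hmgcs1 had means of 118 ± 14.2 and 133 ± 16.9 CPM (0.17 ± 0.09 SE, edgeR adjusted p = 0.381). The count of 45 ranged from 13 without triple-knockout replicate 2 to 412 without haploinsufficient replicate 3. Of the 249 genes, 0 were among those called without triple-knockout replicate 3 or with the replicate block, where Rpph1 was lost too, 4 with the tissue score as a term, 5 with DESeq2 and 8 without haploinsufficient replicate 3. A p that misses the threshold does not show that the groups are alike.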

How the data were processed

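The authors used TopHat2 (version 2.0.10), Bowtie2 and HTSeq with the build mm10, per the submitters' processing notes. The deposited count table holds whole-number counts for 23453 genes, 58 single-exon or untranslated features of the targeted genes, and Cre. The FPKM values that the authors deposited (23885 entries) are from Cufflinks (version 2.1) per the same notes, and were used in 1 alternative as log2(FPKM + 1). Strand was not kept, so overlapping and antisense genes cannot be told apart. Targeted genes are sums of their features.

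Counts were tested with edgeR (version 4.0.16, R version 4.3.3), quasi-likelihood, robust, with TMM scaling, 1 coefficient for the 15 GRK-deficient libraries and 1 for the ID set, over all 23 libraries. The edgeR expression filter used 10 as minimum count and 15 as minimum total. P-values were two-sided and adjusted over all genes by the Benjamini-Hochberg method, with a threshold of 0.05. The common biological coefficient of variation was 0.216. Log2 CPM used a prior count of 1. In simulated data of 13790 genes the fit recovered 26% of genes shifted 1.3-fold, 70% at 1.5-fold, 88% at 2-fold and 96% at 3-fold, with 5 false among 145 calls. The shifted genes were drawn from those of higher counts, so recovery at low counts is not given. Differences of ID set or tissue that many genes share were not simulated, and recovery in the real libraries may be lower. No 2 libraries of a group agreed within sampling noise (lowest chi-square per degree of freedom 5.2). Alternatives used DESeq2 (version 1.42.0), limma (version 3.58.1), other scaling, filters, terms and subsets of libraries.

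Named genes are the targeted genes, the 12 highest and 12 lowest fold changes of called genes averaging 1 log2 CPM or more, up to 12 per direction without overlap averaging 3 log2 CPM or more, members of the 32 lists that were called or (up to 4) had the smallest p, and up to 3 called genes within 10 Mb of a locus. Small RNA genes, gene models without a name and genes described with a list or other tool were named after their values were seen. Exon intervals cover counting error only. The comparison, members and lists were chosen with earlier results of these data known. A few genes that the rule names are not reported here.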

Additional observations from a re-analysis of the deposited data

Results flagged for a closer look

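Within the 3 groups of libraries, 30 of 291 group tests over 97 named genes (10.3%) had a highest or lowest library set apart from the rest of its group by Dixon's criterion, where chance gives about 1 in 20. Wild-type replicate 4, the wild-type library of a high tissue score, held 6 of these values, the high Acat2 (17.99 CPM), Gli1 (12.34 CPM), Hhip (6.169 CPM), Foxf1 (7.969 CPM), Cldn6 (8.226 CPM) and Isl1 (7.454 CPM). Wild-type replicate 2 held 4, in Grk4 (206.3 CPM), Csrnp3 (4.122 CPM), Tmem181b-ps (47.75 CPM) and Dnahc8 (15.29 CPM). Other wild-type values set apart were Psmc4 in replicate 3 (183.3 CPM), Mrc1 in replicate 5 (30.07 CPM) and Synj2 in replicate 7 (42.23 CPM). Among haploinsufficient libraries, replicate 8 stood apart in Grk5 (8.256 CPM), Sox10 (9.408 CPM) and Dbh (3.84 CPM), replicate 6 in Scd1 (2.07 CPM) and Isl1 (14.03 CPM), replicate 3 in Ankrd1 (724.3 CPM), replicate 1 in Ccl25 (9.915 CPM) and replicate 4 in Lyz2 (26.89 CPM). Among triple-knockout libraries, replicate 1 stood apart in Clic6 (6.041 CPM), Isl1 (13.41 CPM), Dbh (15.33 CPM) and Csf2ra (18.92 CPM), replicate 4 in Irx6 (7.883 CPM), replicate 5 in Acan (8.603 CPM), replicate 6 in Insig1 (37.69 CPM), and replicate 7 in Fendrr (12.48 CPM) and Mcm10 (38.01 CPM).

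Rpph1 was the called gene whose 2 GRK-deficient groups also differed from each other, by -0.8272 on the log2 scale (triple knockout minus haploinsufficient, edgeR adjusted p = 0.0157).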

How the results depend on the processing

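Every one of the 249 called genes kept its direction under median-ratio scaling, no filter, DESeq2, no ID term, a sex term, the replicate block and the tissue settings. Main counts were 92 higher and 157 lower. DESeq2 called 179 higher, the tissue score as a term left 88 lower, and leaving out the libraries of a high score left 101 lower. IDs 1 to 12 alone gave 17 higher and 8 lower and IDs 19 to 30 alone 49 higher and 74 lower, with fewer libraries in each. Leaving out 1 library gave 60 (without wild-type replicate 1) to 109 higher and 109 to 172 lower. Of 22 same-number pairs 7 correlated over 0.1 with the ID term removed, within a range of -0.54 to 0.46. Pairs of different numbers were not compared, so whether replicate numbers pair the libraries cannot be told from this. With the replicate number as a block 64 were higher and 136 lower, 181 of the 249 among them. Haploinsufficient libraries alone against wild type gave 87 higher and 170 lower, with 155 of the 249 among them. Triple-knockout libraries alone against wild type gave 110 higher and 200 lower, with 186 of the 249 among them. Fewer libraries enter each of these fits, and the genes of the 249 that were tested in them kept their direction. Between triple knockout and haploinsufficient, DESeq2 called 269, the replicate block 1 and the tissue score as a term 158, and leaving out 1 library gave 13 (without triple-knockout replicate 2) to 412 (without haploinsufficient replicate 3). In IDs 1 to 12 DESeq2 called 88 and leaving out 1 library 8 (without wild-type replicate 2) to 39 (without haploinsufficient replicate 4). In IDs 19 to 30 DESeq2 called 326 and leaving out 1 library 38 (without wild-type replicate 6) to 155 (without haploinsufficient replicate 6). With the tissue score as a term Gli1 (-0.67), Hhip (-0.70), Ptch1 (-0.11) and Gli3 (-0.033) turned negative, none of them called in the main test. The cause of these changes was not tested. The libraries of lowest total, 1757257 counts, limit what can be read for genes of a few CPM.

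Of the named genes with a call, 19 lost it in at least 1 fit that left out a library, and each kept its direction. Wisp1 lost it without wild-type replicate 5 (-0.38), D19Ertd737e without wild-type replicate 7 or 8, Ramp2 without wild-type replicate 3, 6 or 8 (-0.32 to -0.34), Myocd without wild-type replicate 1, 7 or 8 (-0.41 each), Gap43 without wild-type replicate 1, 2 or 8 (0.37 to 0.41), Fdps without wild-type replicate 1, 6, 7 or 8 (0.36 to 0.39) and Dnahc8 without wild-type replicate 1, 3, 5 or 7 (0.69 to 0.75). Slc4a8 lost it in 5 of the 23 fits (1.03 to 1.31 over all), Clic6 in 7 (1.23 to 1.58), Lyve1 in 7 (0.74 to 0.93), Csrnp3 in 11 (1.13 to 1.54), Itga2b in 13 (-0.76 to -0.52), Cpt1a in 14 (-0.40 to -0.30), Acat2 in 15 (0.54 to 0.70), Adrbk1 in 16 (-0.52 to -0.44), Pafah2 in 16 (-0.44 to -0.37), Tagln in 16 (-0.41 to -0.34), Bmp5 in 17 (0.46 to 0.66) and Cyp2d22 in 18 (-0.84 to -0.67). A sex term ended the calls of Bmp5, Acat2 and Cpt1a, and limma on log2(FPKM + 1) those of Wdfy1, Pafah2, Wisp1, Lyve1, Itga2b and Cpt1a.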
